A study of Mus musculus with 4 samples.

Results

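Solute carriers are the membrane proteins that move nutrients, ions, metals and metabolites across the cell surface and the membranes of organelles. The solute carrier genes were taken as all rows of the count table whose mouse symbol begins with Slc followed by a family number, whatever their level, which gave 311 of 17230 rows. Their reads come from 4 bulk RNA sequencing libraries of cells sorted from mouse femurs at postnatal day 21, after a single tamoxifen dose at embryonic day 12.5. The 2 Hes1-derived libraries (replicates 1 and 3) came from Cxcl12(GFP/+) mice that were heterozygous for Hes1(CreER/+) and for R26R(tdTomato/+). The 2 Fgfr3-derived libraries (replicates 2 and 3) came from Cxcl12(GFP/+) mice with Fgfr3-iCreER and R26R(tdTomato/+). Both groups thus carried a GFP allele of Cxcl12, which marks CXCL12-abundant reticular (CAR) cells, the stromal cells of the marrow that feed blood stem cells. Both also carried a tdTomato allele that stays on in every descendant of a cell in which the CreER recombinase was active at the pulse. Per the series title, the lineage marks stand for an origin in the fetal perichondrium or in chondrocytes. The design text and the cell type labels name both colours, whereas the extraction protocol names only tdTomato, so whether GFP was also gated is not settled here. The labels do not say whether a library is 1 animal or a pool, so p-values measure the spread between these libraries, which may be partly technical.

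The solute carrier superfamily is numbered by sequence likeness, and a family usually shares a substrate class, such as amino acids in SLC7 and SLC38 or zinc in SLC30 and SLC39. Some members act alone and others need a partner, as the SLC7 light chains need the heavy chain SLC3A2 to reach the cell surface. In bone, phosphate, amino acid, zinc and citrate carriers serve matrix formation and mineral deposition, and red cell precursors and phagocytes have carriers of their own for anions, iron and heme. The members were therefore described by substrate class, and those known from erythroid, myeloid or skeletal cells were marked from textbook knowledge.

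The libraries held between 22745128 and 26804832 counted reads, of which the solute carrier genes took 1.67%, 1.41%, 1.33% and 1.35% in Hes1-derived replicates 1 and 3 and Fgfr3-derived replicates 2 and 3. The 95% Clopper-Pearson interval of the first share was 1.66% to 1.67%, and that of the last 1.35% to 1.35%, which covers counting error only. Markers of other cells were present in every library and differed between the groups. Summed over the list, erythroid markers ran from 3449 to 5975 counts-per-million units (CPM) in Hes1-derived and from 864 to 1319 CPM in Fgfr3-derived libraries. Leukocyte markers ran from 2279 to 2710 CPM against 592 to 1105 CPM, B-cell markers from 1821 to 2015 CPM against 267 to 484 CPM, and osteoblast markers from 3655 to 3743 CPM against 15201 to 18958 CPM. Cxcl12 itself had 7057 and 4179.8 CPM against 9764 and 7028 CPM and was not called different (edgeR adjusted p = 0.396). All 9 CAR markers, Cxcl12 among them, had a negative log2 fold change (median -0.58). Of the 9 only Foxc1 was called lower (-1.28, edgeR adjusted p = 0.0334), which is 11.1% against 6.56% of all genes. The eGFP reads were lower in both Hes1-derived libraries, without overlap, and were not called (-0.70, edgeR adjusted p = 0.349).

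Of the 311 members 249 passed the filter on low counts and were tested. The other 62 had at most 34 reads in any library, and 50 of them had no read in at least 1 library. The symbol rule also took in 5 genes that are no carriers but are named after one (Slc2a4rg-ps, Slc4a1ap, Slc7a6os, Slc9a3r1 and Slc9a3r2), and of these 5 edgeR called 0, with 1 at an unadjusted p under 0.05. The members not tested were most numerous among the carriers of neurotransmitters, osmolytes and organic ions, where 17 of 42 members were not tested. Expression is given as CPM, with library sizes adjusted by TMM factors, and each log2 fold change is Hes1-derived minus Fgfr3-derived. A member was called higher or lower in Hes1-derived libraries when its edgeR quasi-likelihood p, adjusted by Benjamini-Hochberg over 14330 genes, was under 0.05.

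By this test 23 members were higher and 20 were lower in Hes1-derived libraries, which is 17.3% of those tested against 11.8% of all genes. Higher calls made up 9.24% of tested members against 5.24% of all genes, and lower calls 8.03% against 6.56%. The groups did not overlap in 169 of 249 members (67.9%), against 61.9% of all genes. The median log2 fold change of the tested members was -0.18, beside -0.02 over all genes. Without the 37 members of the erythroid, myeloid and skeletal lists, 13 of 212 members were higher and 18 were lower, with a median of -0.24. The counts depend on single libraries. Leaving out Hes1-derived replicate 1 gave 11 higher and 15 lower members, and leaving out Hes1-derived replicate 3 gave 10 and 3. Omitting Fgfr3-derived replicate 2 gave 8 and 3, and omitting Fgfr3-derived replicate 3 gave 32 and 23. Scaling to the summed CAR marker reads raised the median of all genes to 0.58 and left 26 members higher and 2 lower. Scaling to eGFP reads raised it to 0.83 and left 9 higher and 0 lower. No called member changed direction under any of these scalings. An upward move cannot turn a higher member round, and the lower members were picked as far below 0. The kept direction was thus largely fixed in advance. The members' median was 0.40 under the CAR scaling and 0.64 under the eGFP scaling. A scaling moves the log2 fold change of every gene by nearly the same amount. The gap to the median of all genes was therefore bound to stay and is no check of the members.

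**Figure D1:**
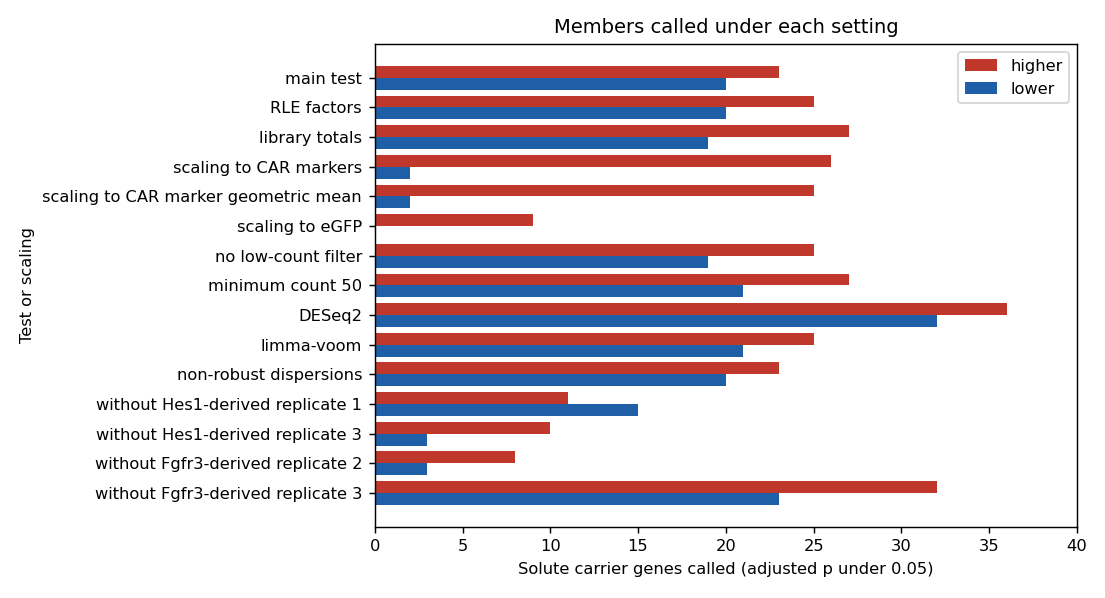
Number of solute carrier genes with an adjusted p under 0.05 (x axis) under the main test and each other test or scaling (y axis), with bars for members higher and lower in Hes1-derived libraries. The main test gives 23 and 20, the CAR and eGFP scalings leave 2 and 0 lower, and leaving out Fgfr3-derived replicate 2 leaves 8 and 3.

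The calls were counted by substrate class, with no test between the classes. Amino acid and peptide carriers had 8 higher and 2 lower calls among 37 tested members (median log2 fold change 0.06). Carriers of monocarboxylates and dicarboxylates had 2 higher and 0 lower of 11 (median 0.84), and at an unadjusted p under 0.05 they had 3 of 11 in all. Inorganic ion carriers had 2 higher and 5 lower of 33 (median -0.33), and nucleotide sugar and acetyl-CoA carriers had 0 higher and 3 lower of 23 (median -0.40). Metal and heme carriers were split, with 3 higher and 3 lower of 27 (median -0.45), and 25 of the 27 did not overlap between the groups, where 61.9% of all genes did not. Mitochondrial carriers had 3 higher and 1 lower of 39 (median -0.11), and sugar carriers 1 and 1 of 20 (median -0.00335). Carriers of neurotransmitters, osmolytes and organic ions had 2 and 2 of 25 (median -0.16). The called share was 10.3% for mitochondrial and 10% for sugar carriers, below the 11.8% of all genes. It was 27% for amino acid, 22.2% for metal and heme, 21.2% for inorganic ion and 18.2% for monocarboxylate and dicarboxylate carriers. For carriers of neurotransmitters, osmolytes and organic ions it was 16%, and for nucleotide sugar and acetyl-CoA carriers 13.04%. These medians are descriptions without a test and all of them move upward under the CAR and eGFP scalings.

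**Figure D2:**
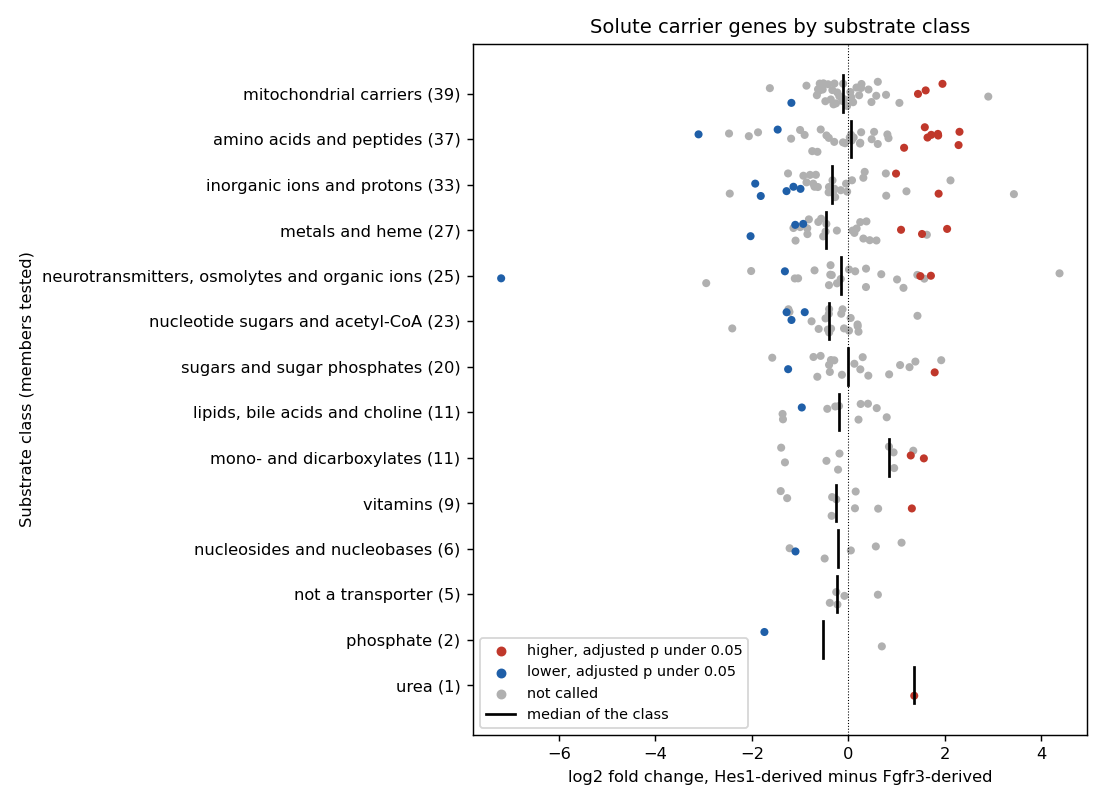
Log2 fold change, Hes1-derived minus Fgfr3-derived (x axis), of each tested solute carrier gene by substrate class (y axis, with the number tested), coloured by call, with the class median as a bar. Amino acid carriers hold 8 of the 23 higher calls, and their class median is 0.06.

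The 8 higher amino acid and peptide carriers included importers of large neutral amino acids and of glutamine. Slc7a5 (chr8:121881150-121907694, minus strand, GRCm38), the LAT1 exchanger that brings in leucine and other large neutral amino acids, had 207 and 151 CPM among Hes1-derived libraries (replicates 1 and 3) against 41.9 and 56.3 CPM among Fgfr3-derived libraries (replicates 2 and 3). Both Hes1-derived values lay well above both Fgfr3-derived values, and the log2 fold change was 1.86 ± 0.26 (SE, edgeR adjusted p = 0.0161). Slc7a5 kept this call in all 14 alternatives that were run, as did 1 other member, Slc25a37. Slc43a1, the LAT3 facilitated carrier of branched-chain amino acids, had 338 and 246 CPM against 74.3 and 103 CPM (1.72 ± 0.27). Slc1a5, the ASCT2 carrier that takes up glutamine, had 715 and 711 CPM against 319 and 320.2 CPM, so that replicates lay close together and the groups far apart (1.16 ± 0.22, edgeR adjusted p = 0.0255). The system A and N glutamine carriers Slc38a1 (1.59 ± 0.26) and Slc38a5 (1.64 ± 0.27) rose as well, and Slc38a5 is also on the list of members known from erythroid cells. Markers of blood cells moved the same way, with 8 of 10 erythroid, 6 of 6 B-cell and 4 of 4 leukocyte markers called higher. These shares were 80%, 100% and 100%, against 5.24% of all genes. The part of these markers in the higher amino acid carriers was not tested.

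The heavy chain was not among the called members. Slc3a2, which carries both the LAT1 and the cystine exchanger to the surface, had 358 and 265 CPM against 276 and 299.9 CPM, and the groups overlapped (0.11 ± 0.24, edgeR adjusted p = 0.801). Per kilobase of exon, Slc7a5 had 0.496 and 0.490 of the Slc3a2 reads in Hes1-derived libraries and 0.130 and 0.161 in Fgfr3-derived libraries. Slc38a2, the most abundant system A carrier, had 540.2 and 482 CPM against 646 and 423 CPM, with the highest and the lowest value both in the Fgfr3-derived group. Slc1a4, the ASCT1 serine and alanine carrier, had 23.8 and 10.8 CPM against 40.6 and 38.0 CPM (-1.19 ± 0.37, edgeR adjusted p = 0.0826), the opposite sign to Slc1a5.

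Slc7a11, the cystine and glutamate exchanger that feeds glutathione synthesis, had 15.7 and 12.5 CPM against 2.33 and 3.36 CPM (2.31 ± 0.38, edgeR adjusted p = 0.0192). It is known as a target of ATF4, the transcription factor of the amino acid response, and its RefSeq promoter (GRCm38.p6, chr3:50443614-50443863, minus strand, 250 bases up to the start site) is shown because it held 2 matches to the ATF4-type motif TGATGNAAN, in capitals, 1 on each strand.
Slc7a11: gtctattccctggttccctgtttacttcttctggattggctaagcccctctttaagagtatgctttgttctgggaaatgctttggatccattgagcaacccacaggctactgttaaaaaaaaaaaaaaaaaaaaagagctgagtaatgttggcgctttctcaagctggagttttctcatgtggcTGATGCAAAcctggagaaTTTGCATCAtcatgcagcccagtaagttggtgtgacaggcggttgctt
Their first bases lay 66 and 48 bases before the start site. The motif, searched on both strands, was present in 3.44% of 32851 promoter windows of this length and in 3.89% of 27025 genes with a window. Among the 4 higher amino acid members with a RefSeq entry it was found in 1, Slc7a11 itself. A match is a run of letters and not a shown binding site. Of the 14 tested genes of the amino acid response 0 were called by edgeR in either direction and 3 had an unadjusted p under 0.05. Atf4 had 202 and 174 CPM against 207 and 202 CPM, and Asns, which makes asparagine, had 80.3 and 102 CPM against 55.4 and 72.9 CPM (0.51 ± 0.24, edgeR adjusted p = 0.205).

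Peptide carriers and the lower amino acid carriers completed the class. Slc15a2, the PEPT2 carrier of short peptides, had 9.59 and 7.21 CPM against 2.41 and 1.03 CPM (2.29 ± 0.52). Slc38a4, a system A carrier encoded by an imprinted gene (chr15:96994820-97055956, minus strand), ran the other way, with 1.32 and 6.77 CPM against 36.9 and 33.1 CPM. The 2 Hes1-derived libraries differed from each other about as much on the log scale as the nearer of them from the other group, and the log2 fold change was -3.11 ± 0.65 (edgeR adjusted p = 0.0293). Relative to Slc38a2 per kilobase, Slc38a4 had 0.00276 and 0.0159 against 0.0645 and 0.0886. Slc36a2, a proton-coupled carrier of small amino acids, had 38.9 and 26.7 CPM against 98.2 and 82.8 CPM (-1.46 ± 0.26).

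All 8 members of the erythroid list had a positive log2 fold change (median 1.43). Of these 5 were called higher (62.5%, against 5.24% of all genes) and 0 lower. Slc4a1 (chr11:102348824-102366203, minus strand), the band 3 anion exchanger of the red cell membrane, had 2429.7 and 1247 CPM against 392 and 611 CPM. The replicates differed almost as widely as the nearest values of the groups, and the log2 fold change was 1.87 ± 0.41 (edgeR adjusted p = 0.0316). The call was lost on leaving out Hes1-derived replicate 1 (1.31, edgeR adjusted p = 0.0560) or Fgfr3-derived replicate 2 (1.60, edgeR adjusted p = 0.116), and over all 14 alternatives the log2 fold change ran from 1.31 to 2.50. Slc25a37 (chr14:69241848-69285112, minus strand), mitoferrin-1, the iron importer of erythroid mitochondria, had 516 and 340.4 CPM against 96.3 and 125 CPM (1.95 ± 0.28, edgeR adjusted p = 0.0164). Its relative Slc25a28, mitoferrin-2, which serves other tissues, had 20.7 and 21.8 CPM against 20.2 and 21.1 CPM, so that the per-kilobase ratio of Slc25a37 to Slc25a28 was 9.17 and 5.73 against 1.75 and 2.17. Slc14a1, the urea channel that carries the Kidd blood group, had 136 and 98.2 CPM against 47.6 and 43.2 CPM (1.37 ± 0.24). Slc22a4, the ergothioneine carrier, rose by 1.49 ± 0.34.

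The fifth call was Slc38a5, given above, and the remaining 3 members of the list were not called. Slc25a38, which brings glycine into mitochondria for heme synthesis, had 120.1 and 83.6 CPM against 37.0 and 60.7 CPM (1.06 ± 0.31, edgeR adjusted p = 0.0657), and Slc6a9, the glycine carrier of the surface, had 130.3 and 82.1 CPM against 56.0 and 49.4 CPM (1.01 ± 0.27, edgeR adjusted p = 0.0527). Of the 3679 exonic bases of Slc6a9, 1940 lie opposite Ccdc24 or Gm17114, and the strand setting of the counting is not given in the sources used here. Slc11a2, the ferrous iron carrier DMT1, had 101 and 66.1 CPM against 77.7 and 79.4 CPM, and the groups overlapped. The count of higher members was 3 when Hes1-derived replicate 1, or alternatively Fgfr3-derived replicate 2, was left out.

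Erythroid markers moved with these genes. Of 10 marker genes with a row 8 were called higher (80%, against 5.24% of all genes). None of the 10 was at 0, and the summed marker level is given above. Per 100 marker reads of the same library, the 8 carriers together came to 60.8 and 59.7 reads (Hes1-derived) against 87.2 and 78.4 reads (Fgfr3-derived). Alas2 alone held 64.2% and 54.2% of the marker reads against 42.5% and 40.5%. Without Alas2 the carriers came to 170 and 130 reads per 100 marker reads against 151 and 132, and the groups overlapped. Slc25a37 per 1000 marker reads was 86.4 and 98.7 against 112 and 94.7, with overlap, and 242 and 216 against 194 and 159 without Alas2, with none. The direction of these ratios thus depends on 1 marker gene. Whether fewer cells of a type or less RNA per cell lies behind such values cannot be told apart in bulk libraries. In the list of iron and heme handling genes outside the superfamily 5 of 18 were higher and 0 lower. The higher calls made up 27.8%, against 5.24% of all genes. Alas2, the erythroid enzyme that starts heme synthesis, had 3838 and 1870.3 CPM against 367 and 535 CPM. Tfrc, the transferrin receptor, had 321 and 329 CPM against 134 and 142 CPM, and Ncoa4, the receptor for ferritin turnover, 616 and 528 CPM against 226 and 212 CPM.

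RefSeq promoter entries matched 4 of the 8 erythroid members. The GATA-type motif AGATAA, which is bound by erythroid GATA factors elsewhere, was found in 0 of these 4 genes. It was found in 11.4% of all 27025 genes with a window. The CACCC-type motif CCACACCC was found in 1 of the 4, Slc22a4, and in 3.68% of all genes with a window. The Slc22a4 window (GRCm38.p6, chr11:54028105-54028354, minus strand) is shown as the erythroid carrier whose promoter holds a match, in capitals on the opposite strand, with its first base 50 bases before the start site.
Slc22a4: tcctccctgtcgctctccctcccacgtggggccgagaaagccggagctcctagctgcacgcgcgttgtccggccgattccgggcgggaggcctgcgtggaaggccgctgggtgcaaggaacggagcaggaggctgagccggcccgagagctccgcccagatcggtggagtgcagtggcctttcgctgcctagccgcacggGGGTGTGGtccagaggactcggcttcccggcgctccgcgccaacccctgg
The absence of a motif from the other windows says only that these letters are not there.

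Of the 14 members known from myeloid cells 3 were higher (21.4%, against 5.24% of all genes) and 0 lower, with a median of 0.78. The 3 are known as carriers of lysosomes or phagosomes, a trait that was not compared with the 11 members not called. Slc11a1, the metal pump of the phagosome formerly called Nramp1, had 40.9 and 47.3 CPM against 11.3 and 19.3 CPM (1.53 ± 0.31, edgeR adjusted p = 0.0276). Slc15a3, a histidine and peptide carrier of the lysosome, had 16.1 and 16.6 CPM against 3.27 and 5.73 CPM (1.86 ± 0.38). Slc48a1, which releases heme from the lysosome, had 392 and 253 CPM against 134 and 168 CPM (1.09 ± 0.27, edgeR adjusted p = 0.0462). Without a library the count of higher members was 1 (Hes1-derived replicate 1), 1 (Hes1-derived replicate 3), 0 (Fgfr3-derived replicate 2) or 7 (Fgfr3-derived replicate 3).

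The remaining 11 myeloid members were not called. Slc40a1, ferroportin, the iron exporter, had 295 and 307 CPM against 288 and 264 CPM. For the glucose carriers Slc2a6 (22.3 and 28.7 CPM against 3.63 and 15.8 CPM) and Slc2a3 (143 and 157 CPM against 69.1 and 184 CPM), and for the lactate exporter Slc16a3 (86.4 and 114 CPM against 25.6 and 79.0 CPM), Fgfr3-derived replicate 2 was lowest and replicate 3 was nearer to the Hes1-derived values or above them. The nucleoside carrier Slc28a2 had the same order, with 30.5 and 39.0 CPM against 8.79 and 23.5 CPM. The log2 fold changes of Slc15a4 and Slc37a2 were 0.61 and 1.07 (edgeR adjusted p = 0.0936 and 0.0753). The groups overlapped for Slc29a3 and Slc7a7, and the log2 fold changes of Slc7a2 and Slc4a2, an anion exchanger that osteoclasts use, were -0.75 and -0.79 (edgeR adjusted p = 0.267 and 0.133).

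Leukocyte markers moved with the higher myeloid members, and 4 of 4 were called higher (100%, against 5.24% of all genes). Of 9 neutrophil markers a single 1 was called higher (11.1%), and of 10 macrophage markers 3 were (30%). Neutrophil markers summed to 26428 and 31175 CPM against 8624 and 21225 CPM, with Fgfr3-derived replicate 2 again the lowest library, and macrophage markers to 391 and 485 CPM against 198 and 282 CPM. Osteoclast markers ran the other way in sum, with 1296 and 1608 CPM against 3303 and 3283 CPM, mostly from Mmp9. Of the 6 tested, Acp5 was called higher (16.7%, against 5.24% of all genes) and Mmp9 lower (16.7%, against 6.56%). Ptprc and Csf1r were well above 0 in all 4 libraries. Other macrophage markers were near 0 in Fgfr3-derived replicates 2 and 3, with 3 and 6 reads for Siglec1 and 13 and 0 reads for Cd5l. Cd163 stayed between 2.29 and 3.95 CPM in all 4 libraries. Per 1000 leukocyte marker reads Slc11a1 had 17.97 and 17.47 reads against 19.04 and 17.48 reads, and the groups overlapped. They also overlapped for Slc48a1, with 172 and 93.5 reads against 227 and 152 reads. Slc15a3 remained higher in Hes1-derived libraries without overlap, with 7.08 and 6.11 reads against 5.53 and 5.19 reads. Slc40a1 by the same measure had 130 and 113 reads against 486 and 239 reads.

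**Figure D3:**
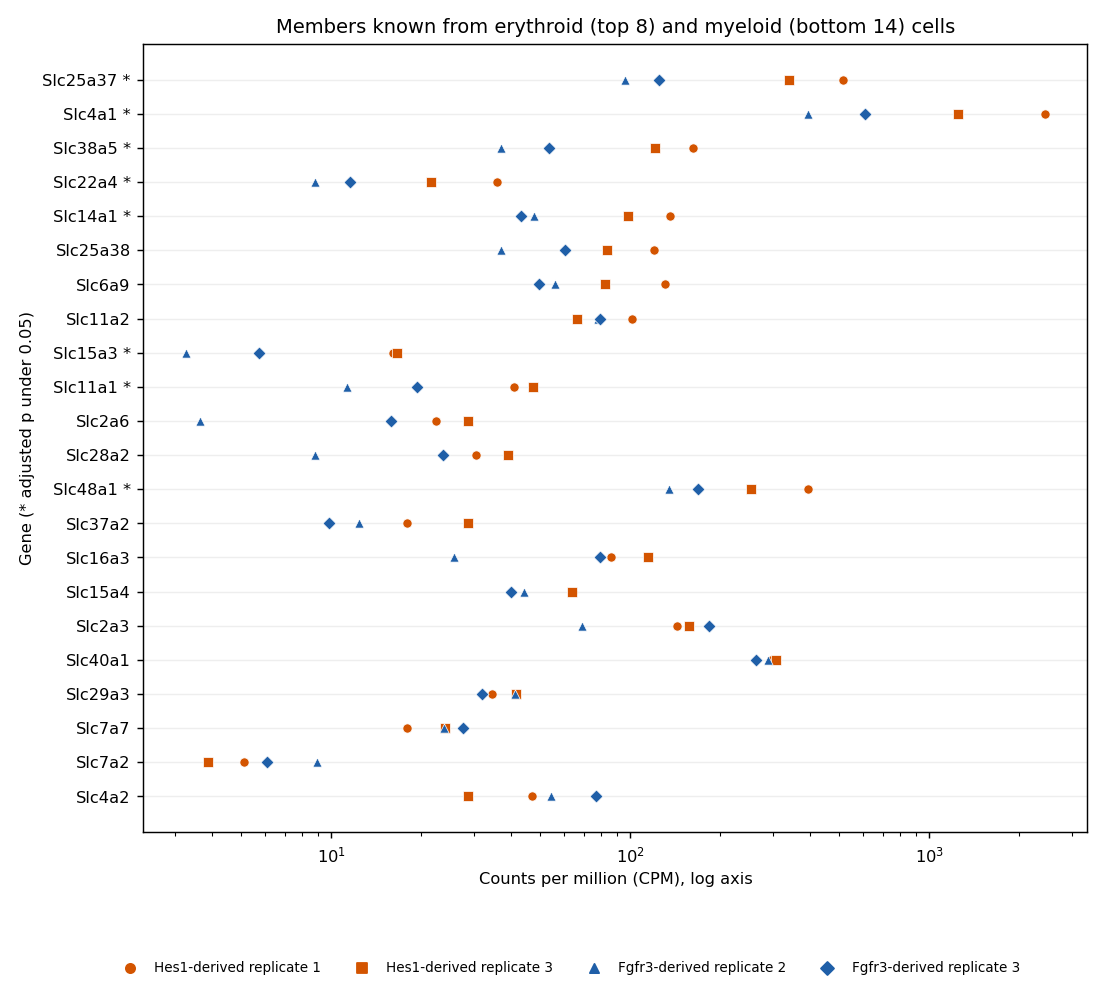
CPM on a log axis (x axis) of the 8 members known from erythroid cells and the 14 known from myeloid cells (y axis, an asterisk for an adjusted p under 0.05), 1 symbol for each library. All erythroid members but Slc11a2 sit higher in both Hes1-derived libraries, whereas Slc2a3, Slc29a3 and Slc7a7 overlap between the groups.

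Of the 2 phosphate importers tested 1 was lower. Slc20a2, the sodium-coupled phosphate importer PiT-2 (chr8:22476788-22569612, plus strand), had 224 and 189.7 CPM against 791 and 591 CPM. Each Fgfr3-derived value was over any Hes1-derived value by a wide gap, and the log2 fold change was -1.74 ± 0.26 (edgeR adjusted p = 0.0166). Slc20a1, which encodes PiT-1, was not called and had 61.1 and 65.0 CPM against 39.7 and 38.2 CPM (0.70 ± 0.20, edgeR adjusted p = 0.0676, and from 0.0334 to 0.287 over its alternatives). The per-kilobase ratio of Slc20a2 to Slc20a1, which needs no scaling between libraries, was 3.55 and 2.83 against 19.3 and 15.0. By reads per kilobase of exon at the CPM scale (RPKM), Slc20a2 was the third most abundant member in Fgfr3-derived libraries at 194 ± 39.7 (SD, n = 2). Of 7 tested genes of phosphate and pyrophosphate metabolism 3 were lower (42.9%, against 6.56% of all genes) and 0 higher. They were Enpp1, which makes pyrophosphate (35.2 and 28.5 CPM against 125 and 136 CPM), Alpl, the phosphatase that breaks it down (966 and 607 CPM against 3229.5 and 2740.1 CPM), and Enpp3 (38.6 and 27.2 CPM against 137 and 159 CPM). Alpl is also an osteoblast marker, and 6 of 8 osteoblast markers were called lower (75%, against 6.56% of all genes).

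Of the 15 members known from skeletal cells 2 were higher (Slc7a5 and Slc1a5) and 2 lower (Slc20a2 and Slc39a14), with a median of -0.33. The calls made up 26.7% of the list, against 11.8% of all genes. The glucose importer Slc2a1 had 48.2 and 49.7 CPM against 70.1 and 55.5 CPM (-0.36 ± 0.22) and was not called, and of 16 tested glycolysis genes 0 were called by edgeR and 4 had an unadjusted p under 0.05. Carriers that feed cartilage matrix were not called either. The sulfate carrier Slc26a2 had 20.6 and 22.7 CPM against 36.0 and 18.4 CPM, and Slc35d1, which supplies nucleotide sugars for chondroitin sulfate, had 8.93 and 19.8 CPM against 24.9 and 19.2 CPM. Slc13a5, the citrate importer of osteoblasts, stayed between 0.0880 and 1.58 CPM. Slc10a7, Slc1a3 and Slc39a13 were not called (-0.19, 0.54 and -0.85). Under the CAR scaling the skeletal list had 1 higher and 0 lower call.

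Metal and heme carriers held 3 calls in each direction, of which Slc11a1 and Slc48a1 are described above. Slc39a14, the ZIP14 importer of zinc, iron and manganese (chr14:70303469-70351425, minus strand), had 23.6 and 14.9 CPM against 82.2 and 74.6 CPM (-2.03 ± 0.28, edgeR adjusted p = 0.0161). It kept its call in all 4 fits without a library and lost it under the CAR and eGFP scalings. Its nearest relative Slc39a8 had 26.4 and 29.7 CPM against 25.4 and 15.8 CPM, and the ratio of Slc39a14 to Slc39a8 per kilobase was 0.700 and 0.392 against 2.53 and 3.70. In the SLC39 family 9 of 11 tested members had a negative log2 fold change and Slc39a14 was the 1 call, which is 9.09% against 11.8% of all genes. The groups did not overlap in any of the 11, where 61.9% of all genes did not. Slc39a7, the most abundant zinc carrier per kilobase, had 197 and 127 CPM against 267 and 444 CPM (-1.14 ± 0.33, edgeR adjusted p = 0.0655). Of 3 tested zinc-binding genes 0 were called by edgeR and 1 had an unadjusted p under 0.05. Slc30a10, which exports manganese, was higher (5.41 and 5.52 CPM against 1.06 and 1.57 CPM). The copper importer Slc31a1 was lower (79.7 and 92.8 CPM against 174 and 155 CPM), as was the magnesium carrier Slc41a1 (35.1 and 29.3 CPM against 76.3 and 61.6 CPM).

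Among ion carriers 2 potassium and chloride cotransporters were lower. Slc12a4 (KCC1) had 99.1 and 80.3 CPM against 186 and 170.3 CPM (-0.99 ± 0.21), and Slc12a7 (KCC4) had 57.3 and 35.3 CPM against 128 and 97.1 CPM (-1.28 ± 0.29). These carriers let potassium and chloride leave a swollen cell together. The chloride and bicarbonate exchanger Slc4a3 (3.78 and 3.06 CPM against 9.46 and 14.6 CPM), the sodium and calcium exchanger Slc8a3 (2.99 and 4.35 CPM against 18.3 and 9.75 CPM) and the anion carrier Slc26a11 (15.7 and 12.0 CPM against 32.7 and 28.2 CPM) were lower. For Slc8a3 the 2 Fgfr3-derived libraries differed nearly as much as the nearest values of the groups.

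Monocarboxylate transport had Slc16a1 and Slc16a10 as its higher members. Slc16a1, the MCT1 carrier of lactate and pyruvate, had 415 and 474 CPM against 194 and 168 CPM (1.30 ± 0.22, edgeR adjusted p = 0.0201). Slc16a10, placed here by family although it carries aromatic amino acids, had 35.0 and 30.0 CPM against 9.27 and 12.7 CPM (1.57 ± 0.28). The per-kilobase ratio of Slc16a1 to the lactate exporter Slc16a3 overlapped between the groups, at 4.82 and 4.16 against 7.60 and 2.14.

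Mitochondrial carriers include the most abundant members of the whole set. Slc25a5, the ATP and ADP exchanger, led in both groups with 451 ± 22.0 and 432 ± 36.6 RPKM (SD, n = 2 each) and was not called. Slc25a39, the mitochondrial glutathione importer, had 932 and 474 CPM against 206 and 257 CPM (1.60 ± 0.35, edgeR adjusted p = 0.0325), and its Hes1-derived values differed from each other by a larger factor than the nearest values of the groups. Slc25a21, an oxodicarboxylate carrier, had 24.7 and 21.1 CPM against 6.98 and 9.82 CPM. Of the aspartate and glutamate carriers of the malate shuttle, Slc25a13 was lower (16.2 and 17.7 CPM against 41.0 and 35.7 CPM), and Slc25a12 had 70.3 and 67.4 CPM against 38.6 and 51.4 CPM (0.61 ± 0.23, edgeR adjusted p = 0.122). The per-kilobase ratio of Slc25a12 to Slc25a13 was 2.13 and 1.88 against 0.463 and 0.707, so that Slc25a12 was the more abundant of the pair in Hes1-derived libraries and the less abundant in Fgfr3-derived libraries.

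Carriers of sugar phosphates held a call in each direction. Slc37a1 had 30.7 and 20.6 CPM against 5.13 and 9.67 CPM (1.79 ± 0.39), and Slc37a3 had 38.3 and 31.2 CPM against 91.6 and 73.5 CPM (-1.25 ± 0.23). Their per-kilobase ratio was 0.892 and 0.735 against 0.0623 and 0.147. The SLC2 family had 11 rows, which are carriers of glucose, fructose, urate or inositol apart from the pseudogene Slc2a4rg-ps. All 11 were tested, 0 were called by edgeR, and 2 had an unadjusted p under 0.05 (Slc2a4 and Slc2a13). Slc50a1, the most abundant sugar carrier per kilobase, overlapped between the groups. Among nucleotide sugar carriers of the Golgi, Slc35a1, which supplies sialic acid, was lower (42.0 and 38.8 CPM against 85.1 and 66.3 CPM), and so were the orphan members Slc35e4 (35.5 and 36.6 CPM against 84.9 and 90.1 CPM) and Slc35f5 (59.2 and 42.1 CPM against 127 and 102 CPM). Slc35a4, the most abundant member of the class, was not called (0.05).

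**Figure D4:**
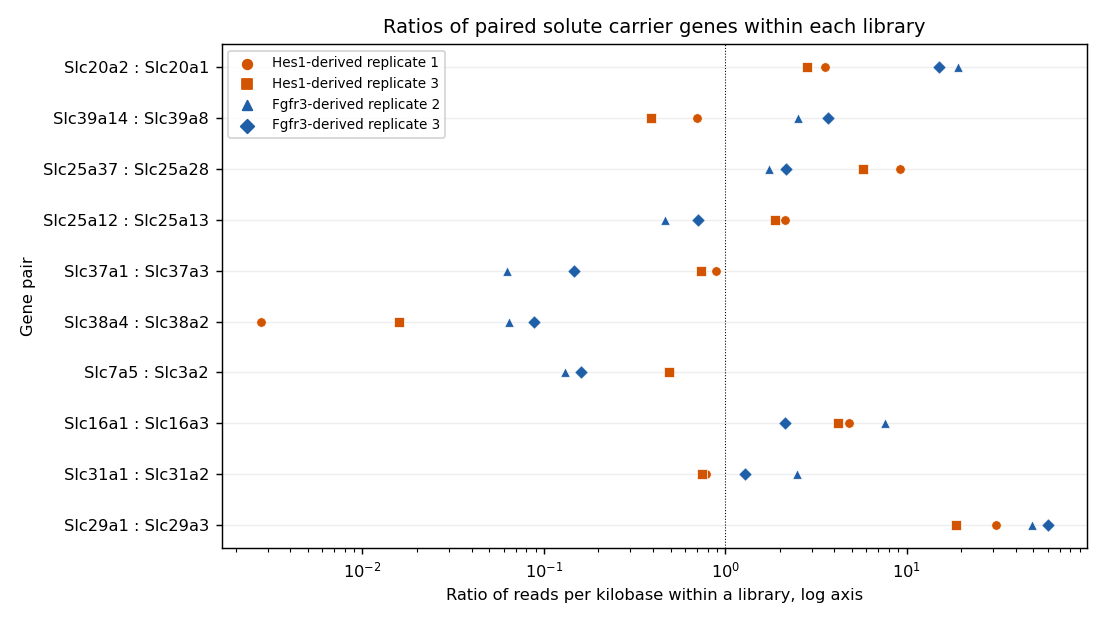
Ratio of reads per kilobase between the members of 10 pairs (y axis) within each library, on a log axis (x axis), 1 symbol for each library and a dotted line at equal levels. In 9 pairs the groups do not overlap and for Slc16a1 and Slc16a3 they do. The pairs were chosen after the values were seen and carry no test.

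Nucleoside, choline and vitamin carriers gave single calls. Slc29a1, the equilibrative nucleoside transporter ENT1, had 549 and 392 CPM against 1030.2 and 979 CPM (-1.10 ± 0.27, edgeR adjusted p = 0.0447) and was the second most abundant member per kilobase in Fgfr3-derived libraries. The choline carrier Slc44a1 was lower (39.4 and 31.5 CPM against 76.2 and 62.2 CPM), whereas its relative Slc44a2, the most abundant of the lipid class, was not called (0.26). Slc46a3, a lysosomal member of the folate carrier family, was higher (22.3 and 20.6 CPM against 7.14 and 10.1 CPM), and Slc19a1, the reduced folate carrier, was not called (-0.34).

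Organic ion carriers closed the set. Slc22a23, an orphan member, was higher (19.7 and 14.3 CPM against 5.17 and 5.20 CPM), and Slc22a17, a receptor for the iron-binding protein lipocalin-2, was lower (60.8 and 35.3 CPM against 113 and 126 CPM). The related Slco family of organic anion carriers was not part of the set. In it 1 of 9 tested genes was higher (11.1%, against 5.24% of all genes) and 0 lower. It was Slco4a1, with 79.4 and 81.5 CPM against 12.5 and 32.1 CPM.

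**Figure D5:**
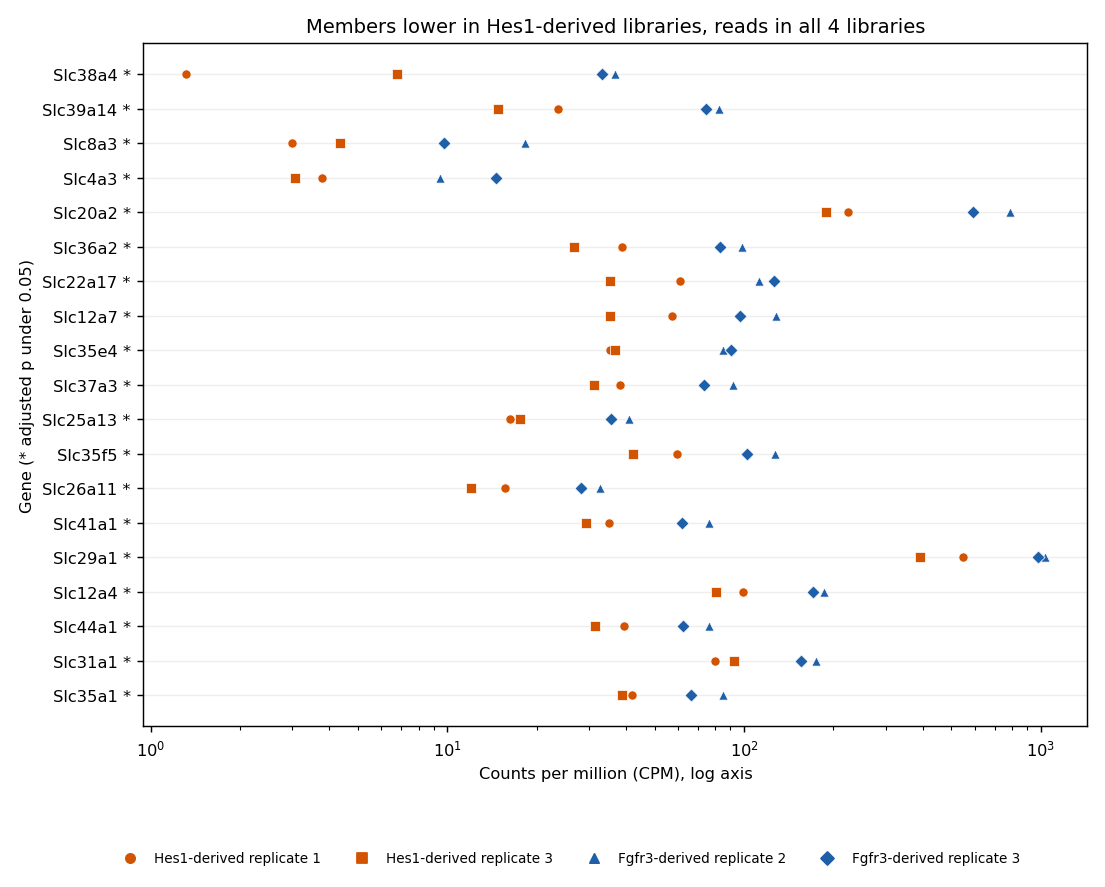
CPM on a log axis (x axis) of the 19 members that were called lower in Hes1-derived libraries and had reads in all 4 libraries (y axis), 1 symbol for each library. In each row both Hes1-derived symbols lie to the left of both Fgfr3-derived symbols.

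The lower members were also read against other genes of the same library. Per eGFP read, all 20 lower members had a lower mean in Hes1-derived libraries, and the groups were free of overlap in 11 of the 20. The 20 were picked as low from these same values, so their lower means were largely fixed in advance. eGFP itself was lower in both Hes1-derived libraries (6669 and 3204 CPM against 9264 and 6754 CPM). Dividing by it raises Hes1-derived values relative to the other group. That all 23 higher members, picked as high in Hes1-derived libraries, were free of overlap by this measure was thus largely fixed in advance. Per osteoblast marker read, 18 of the 20 lower members had a higher mean in Hes1-derived libraries. Osteoblast markers differed more between the groups than most of the lower carriers did, and their part in the lower calls was not tested.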

How the data were processed

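The deposited counts are whole reads per gene symbol and library. Per the submitters' processing notes the authors used Bowtie2 2.2.1 and TopHat2 2.0.13 on mm10, and HTSeq, FastQC, DESeq2, Cuffdiff and Cufflinks, in no stated order. The annotation and strand setting are not given in the sources used here. Per the labels, RNA was amplified before sequencing, so reads are not independent molecules. No normalized values of the authors were used.

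From these counts edgeR 4.0.16 (R 4.3.3) fitted the quasi-likelihood F test to all 4 libraries, with filterByExpr (minimum count 10), TMM factors and robust dispersions (common coefficient of variation 27.8%). The SE of a log2 fold change is its absolute value over the square root of F. CPM used TMM-adjusted library sizes. Exon lengths and positions came from GENCODE M21 (GRCm38, the assembly of mm10), which 310 of the 311 members matched. Promoter sequences came from RefSeq (GRCm38.p6), for 235 members. Among the called members, Slc12a4, Slc15a3, Slc20a2, Slc25a21, Slc25a37, Slc29a1, Slc30a10, Slc37a1, Slc44a1 and Slc48a1 have exons that overlap a gene on the opposite strand, so their reads may include some of that gene.

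The members, lists and tests were chosen with earlier results of these data known. The rule for naming took the 10 smallest p in each direction, up to 3 in each class and direction, the most abundant member of each class per kilobase, the marked lists, and up to 3 genes of each partner list. Slc15a2, Slc26a11, Slc8a3, Slc25a12, Slc25a28, Slc39a8, Atf4, Asns and the pairs compared as ratios were chosen after their values were seen. Values of 2 called members are not reported here. By the rule Hes1 and Fgfr3 were checked: their log2 fold changes were -0.94 (adjusted p = 0.0683) and -1.14 (adjusted p = 0.0487).

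The fit was tested on simulated data of 14330 genes drawn at these depths. It found 17 of 100 genes set to 2-fold and 75 of 100 set to 4-fold. It also made 10 false calls, a larger share of its calls than the 0.05 threshold aims at. No other genes were changed, a smaller share than the 11.8% of genes called in the data. The adjusted threshold was therefore stricter there, and the recovery may not carry over to the data. No libraries agreed within sampling noise (chi-square per degree of freedom 65.0 or more). The alternatives were RLE factors, library totals, scaling to summed CAR markers and to eGFP, no filter and a minimum count of 50, DESeq2 1.42.0, limma-voom (limma 3.58.1), leaving out each library, and dispersions without robust estimation. Scaling to the geometric mean of the CAR markers was added after seeing the data, as was leaving Alas2 out of the erythroid marker sum.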

Additional observations from a re-analysis of the deposited data

How the results depend on the processing

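Among 43 called members, Slc25a37 and Slc7a5 kept their call in all 14 alternatives, and no called member changed direction in any. The members were picked as far from 0 in these same libraries, so the kept direction was largely fixed in advance. Of all members, DESeq2 called 36 higher and 32 lower, the eGFP scaling 9 and 0, and both CAR scalings 2 lower (Slc38a4 among them). Without 1 library the higher members numbered 8 to 32 and the lower 3 to 23. Erythroid higher calls were 2 under the eGFP scaling and 3 to 6 without a library. Myeloid higher calls were 1 under eGFP, 5 with DESeq2 and 0 to 7 without a library. Skeletal calls were 1 higher and 0 lower under the eGFP and both CAR scalings, with 1 to 2 higher and 1 to 4 lower without a library. Of all genes, 44.4% of calls were higher in the main test, 89.0% under the CAR scaling and 94.5% under eGFP. The cause of these shifts was not tested.

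The log2 fold changes that changed sign belonged to genes without a call. Under the summed CAR, geometric CAR and eGFP scalings they were 0.40, 0.44 and 0.65 for Slc10a7, 0.26, 0.30 and 0.49 for Slc19a1, 0.38, 0.43 and 0.62 for Slc26a2, 0.28, 0.31 and 0.52 for Slc2a1, 0.13, 0.15 and 0.44 for Slc35d1, 0.58, 0.63 and 0.80 for Slc38a2, 0.24, 0.27 and 0.48 for Slc50a1, and 0.33, 0.34 and 0.61 for Slc7a7. Under the last 2 they were 0.045 and 0.17 for Cxcl12 and 0.020 and 0.16 for Lepr, and under eGFP 0.071 for Slc7a2. Library totals gave 0.0044 for Slc38a2. Without 1 library the values ran from -0.25 to 0.36 for Slc11a2, -0.0028 to 0.20 for Slc25a5, -0.68 to 0.26 for Slc26a2, -0.082 to 0.26 for Slc29a3, -0.27 to 1.17 for Slc2a3, -0.16 to 0.27 for Slc35a4, -0.29 to 0.29 for Slc38a2 and -0.12 to 0.31 for Slc3a2.

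No paired analysis was possible because the groups share a single replicate number. With 2 libraries a group, changes of 2-fold were mostly missed in the simulation, in which fewer genes were changed than are called in the data. A lone library left in a group was assumed to vary like the other group.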
